A study of Saccharomyces cerevisiae with 12 samples.

Results

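Genome-wide RNA levels of budding yeast (Saccharomyces cerevisiae) were compared between a rap1 temperature-sensitive (ts) mutant and its own wild-type control. The comparison took every array that the labels name Rap1, which gave 6 of the 12 arrays of the series, 3 of rap1 ts and 3 of the wild type. The other 6 arrays hold an abf1 ts mutant and a separate wild type, and serve here to estimate the spread and to test where the rap1 difference is not that of a second ts factor. Cells of all 4 groups were grown at 25 C and held at 37 C for 1 h before total RNA was isolated, so the heat shift is common to mutant and control. Both ts proteins lose DNA binding at 37 C, per the design text. The labels give no strain background, mating type, allele name or marker genotype, and do not state whether numbered replicates came from separate cultures. The spread behind each p-value is thus that between arrays, which may be technical.

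Rap1 is an essential DNA-binding protein with several roles. At promoters of ribosomal protein genes it recruits Fhl1, Ifh1 and Sfp1, and at promoters of glycolytic genes it works with Gcr1 and Gcr2. At chromosome ends it binds the telomere repeats and brings in Rif1, Rif2 and the Sir proteins, and it also takes part in silencing of the HML and HMR mating loci. The comparison asks which RNAs differ after 1 h without its DNA binding.

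Of 5859 features on the array (1 probe set per gene or set of genes), 4687 passed a filter on low signal and were tested. Features with a limma adjusted p below 0.05 were called, and levels are MAS5 signals, which the authors had scaled to a common mean per array. A fall of all RNA together therefore cannot be seen in these values. Fold changes are log2 differences of signal + 13, rap1 ts minus wild type. Equal replicate numbers deviated together (correlations of 0.562, 0.25 and 0.583 for numbers 1, 2 and 3), so the arrays were treated as 3 pairs, and the paired fit is given beside the unpaired one. "Rose" and "fell" below mean called in the paired fit, and each gene also called in the unpaired fit is named as such.

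Array 1 of rap1 ts and array 2 of the wild type stood apart. They lay farthest from 0, on opposite sides, on the first principal component of the 6 arrays (-45 and 34.5, against -13.4 to 22.4 on the others). Array 2 of the wild type had the lowest median signal of the 6 (390.4, against 414 on array 1 of rap1 ts and up to 598.3 on the others). Control transcripts had a steeper loss of signal towards their 5' end in rap1 ts. The ACT1 3' to 5' signal ratio was 48.4, 20.1 and 28.0 in rap1 ts, against 18.2, 6.58 and 2.56 in the wild type (exact permutation test, two-sided, p = 0.1, the smallest possible for 3 against 3). SPT15 ratios were 56.9, 8.91 and 7.87 in rap1 ts, against 7.08, 5.87 and 2.97 in the wild type (exact p = 0.1). SRB4 ratios were 238, 85.9 and 580 in rap1 ts, against 151, 24.9 and 26.6 in the wild type (exact p = 0.2). This sign of RNA or cDNA quality moved with the groups in every comparison below, and its part in any result was not tested.

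In the unpaired fit, 17 genes fell (0.363% of features) and 2 rose (0.0427%). In the paired fit 470 fell (10%) and 701 rose (15%), and all 19 genes of the unpaired fit were among them. Other scalings shifted the balance of the paired calls, to 614 lower and 597 higher with quantile scaling and to 594 lower and 558 higher with median centring. When pair 1, 2 or 3 was left out, 205, 530 and 286 genes fell and 495, 427 and 342 rose, and counts given below for pairs left out are from the same fits. Among the paired calls, 250 fell and 250 rose by at least 2-fold, and 27 fell and 2 rose by at least 4-fold. The 3 signals of rap1 ts lay wholly below those of the wild type for 490 features (10.5%) and wholly above for 753 (16.1%). The fold changes of all features had a median of 0.09, and the medians within pairs 1, 2 and 3 were -0.09, 0.28 and 0.13. The 17 genes that fell in both fits were OPI3, RPS7B, RPL7A, RPS1A, RPL14B, GSC2, CIS3, SVS1, ALG3, KSH1, ARG1, PRO1, AVT4, YHP1, SCP1, SSL1 and YMR027W. HIS3 and UBX3 were the 2 that rose. OPI3 and RPS7B were called in all 14 alternative unpaired fits, RPL7A and YMR027W in 13, and the other 15 genes in 5 to 12. With 1 array left out at a time, between 6 and 14 of the 19 remained called, and 3 of the 19 when the unpaired fit used the 6 rap1 arrays without the spread of the abf1 arrays.

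**Figure D1:**
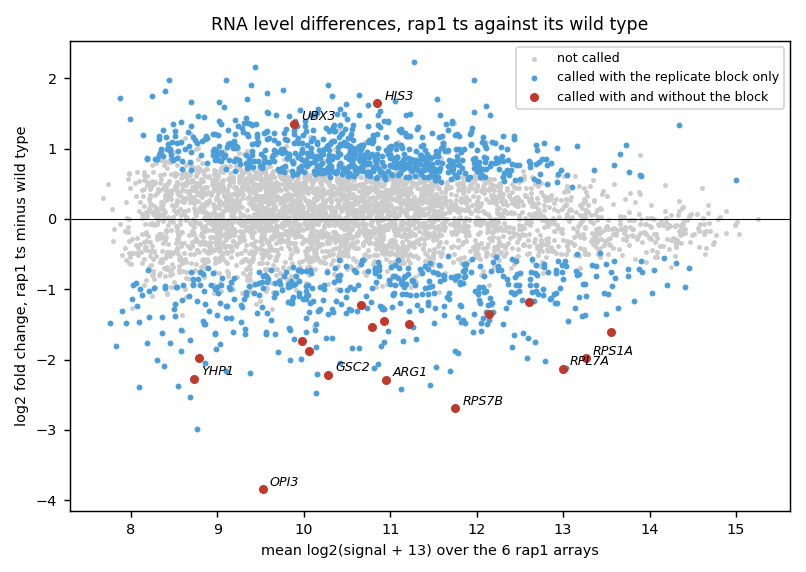
Log2 fold change (rap1 ts minus wild type) against the mean log2(signal + 13) over the 6 rap1 arrays, 1 point per tested feature. Red points, called in both fits, lie at -3.84 (OPI3) to -1.19 (RPL14B) below 0 and at 1.35 (UBX3) and 1.64 (HIS3) above it, and blue points were called in the paired fit alone.

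The largest fall was that of OPI3, a gene for a phospholipid methyltransferase that makes phosphatidylcholine. Its signal was 105, 284 and 197 in rap1 ts, against 2497, 1667 and 5119 in the wild type, and the highest mutant array lay well below the lowest wild-type array. The log2 fold change was -3.84 ± 0.49 (SE, n = 3 each), with an adjusted p of 0.00637 in the unpaired and 0.000927 in the paired fit. MOG1, a Ran-binding factor of nuclear protein import, lies next to OPI3 on the opposite strand with a shared upstream region. It had 115, 185 and 182 in rap1 ts, against 1131, 562 and 1462 in the wild type, and fell by 2.54 on the log2 scale in the paired fit (adjusted p = 0.00321), though not in the unpaired fit (adjusted p = 0.0653). In both genes the fall was smallest in pair 2, at -2.50 for OPI3 and -1.54 for MOG1, and -2.92 or beyond in the other pairs. NPA3, a GTPase needed for nuclear import of RNA polymerase II, lies on the other side of OPI3 and moved the opposite way. It had 19264, 11716 and 9922 in rap1 ts, against 11713, 5427 and 4078 in the wild type, with overlapping groups and a log2 fold change of 1.03 (paired adjusted p = 0.00803).

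Genes of the cytosolic ribosome, the class best known for Rap1 binding, fell in part and none rose. Of 137 listed genes, 80 were tested with a probe set that names no other gene, and those without one are not counted. For 30 of the 80 the name of that probe set does not mark it as gene-specific, so its signal may not be that of 1 gene alone. These 30 include 9 of the 26 members that fell and 3 of the 4 called in both fits (RPL7A, RPS1A and RPL14B). Of the 80, 26 (32.5%) fell in the paired fit, against 10% of all features, and 4 of these also in the unpaired fit. The median fold change over the 80 was -0.24, against 0.09 over all features, and 67 of 80 lay below 0. It was 0.03, -0.65 and -0.21 in pairs 1, 2 and 3, -0.13 when array 3 of rap1 ts was left out, and -0.03 and -0.42 when wild-type array 2 or 3 was left out. With pairs 1, 2 and 3 left out in turn, 26, 19 and 17 members fell, and 2 rose without pair 2. Of large-subunit genes 15 of 47 fell (31.9%), and of small-subunit genes 11 of 33 (33.3%).

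The members that fell did so by very different amounts. RPS7B, a small-subunit protein, had 1324, 1827 and 999 in rap1 ts, against 7611, 12359.5 and 7147 in the wild type, which gave a log2 fold change of -2.69 ± 0.31 (SE, unpaired, adjusted p = 0.00361). A second probe set of RPS7B gave -3.14. RPL7A of the large subunit had 4301, 3365 and 4038 in rap1 ts, against 12969.8, 23121 and 16549.8 in the wild type (log2 fold change -2.13 ± 0.30, adjusted p = 0.00838). Its other probe sets gave -2.56 and -0.245, the last of them dim (mean log2 level of 6.75, against 13.27 for the one used). The groups did not overlap in either gene. RPS1A had 3808, 6954 and 4518 in rap1 ts, against 15183, 33089 and 14756 in the wild type (log2 fold change -1.98 ± 0.31, adjusted p = 0.0147). RPL14B had 3883, 3939.9 and 4615 in rap1 ts, against 8139.7, 9765 and 10498 in the wild type (log2 fold change -1.19 ± 0.21, adjusted p = 0.0207). RPS0B, RPL7B, RPS25B, RPL3 and RPL13A fell in the paired fit alone, with log2 fold changes of -1.98, -1.65, -1.35, -1.20 and -1.19. RPL3 is encoded by a single gene, and its signal was 2383, 8164 and 6950.3 in rap1 ts, against 10799.5, 13094 and 11695 in the wild type.

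Yeast keeps many ribosomal protein genes as near-identical pairs, and the copies of a pair often differed. Both copies were tested for 31 pairs, which were taken by names that differ only in a last A or B. How alike the 2 genes of each pair are was not checked. In 13 of them 1 copy fell and the other was not called, in 5 both fell, and in 13 neither was called. The difference between copies had 1 sign in all 3 array pairs for 22 of the 31, and it exceeded 1 on the log2 scale for 5. RPS1B, the copy of RPS1A, had 15923, 18034 and 8287 in rap1 ts, against 15272, 15798 and 9243 in the wild type, with a log2 fold change of 0.03 beside -1.98 for RPS1A. RPS0A had 21392, 17992 and 15125 in rap1 ts, against 19401, 28461 and 13751 in the wild type, with a log2 fold change of -0.13 and overlapping groups. Its copy RPS0B had 1703, 6538 and 2623 in rap1 ts, against 6959, 23101 and 11333 in the wild type, with a log2 fold change of -1.98 and no overlap. RPS7A fell as RPS7B did, with a log2 fold change of -0.95 beside -2.69. The other pairs that differed by over 1 were RPL9, where RPL9B fell (log2 fold change -1.05) beside 0.04 for RPL9A, and RPP2, where RPP2A fell (-1.15) beside -0.14 for RPP2B. RPS1 and RPL9 copies are measured by probe sets whose names do not mark them as gene-specific, whereas the RPS0, RPS7 and RPP2 probe sets are of the gene-specific type. Signal of RPS1 and RPL9 may be split between copies, which was not tested. Of the 13 pairs with 1 called copy, 7 have gene-specific probe sets for both.

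**Figure D2:**
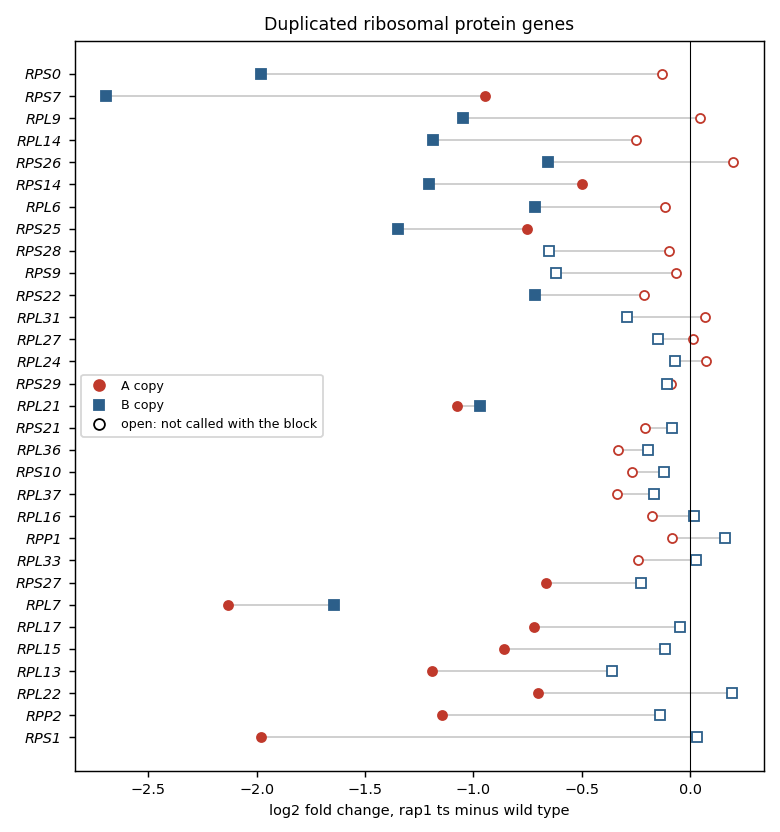
Log2 fold change (rap1 ts minus wild type) of both copies of 31 ribosomal protein gene pairs named A and B, ordered by the difference between copies. Filled symbols mark copies called in the paired fit. RPS1 (bottom) and RPS0 (top) have 1 copy near -1.98 and the other near 0.

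Of 34 translation factors, 6 fell (17.6%) and 1 rose (3, 4 and 6 fell without pairs 1, 2 and 3). The poly(A)-binding protein gene PAB1 had 851, 1857 and 1172 in rap1 ts, against 3431, 5466 and 3721 in the wild type, and fell with a log2 fold change of -1.73 (paired adjusted p = 0.00628, unpaired 0.116). CAM1 and TEF4, both for eEF1B gamma subunits, fell with log2 fold changes of -1.30 and -1.04, and GCD11, for the gamma subunit of eIF2, with a log2 fold change of -1.22. Of 110 ribosome assembly genes 27 rose (24.5%) and 5 fell, against 15% and 10% of all features. The 3 signals of rap1 ts lay wholly above those of the wild type for 3 of the 110 and wholly below for 8. For all features these numbers were 753 (16.1%) and 490 (10.5%). SSF1, a factor of large-subunit assembly, had 14407, 3604 and 8707 in rap1 ts, against 3688, 1281 and 3384 in the wild type, with a rise in each pair (1.96, 1.48 and 1.36) although the groups overlapped. RRP36, RCL1 and NOC3 also rose, with fold changes of 1.16, 1.16 and 0.92. The nucleolar proteins SRP40 and NSR1 and the helicase HAS1 fell, with log2 fold changes of -1.14, -1.07 and -0.79. Without pairs 1, 2 and 3 the rises in this group numbered 4, 24 and 10, and the falls 1, 3 and 3. In the same fits 495, 427 and 342 of all 4687 features rose.

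Of 21 glycolysis and fermentation genes 7 fell (33.3%) and none rose, and 8 of the 10 tested members whose promoters are textbook Rap1 targets were not called. The 7 were HXK2, PGI1, PFK1, PFK2, ENO1, PGK1 and ADH5 (log2 fold change -0.90), and 5, 7 and 6 members fell without pairs 1, 2 and 3. The median over the 21 was -0.40, but -0.17 without array 1 of rap1 ts and -0.15 without wild-type array 2. HXK2, the main hexokinase, had 623, 1959.6 and 2327 in rap1 ts, against 3098, 8271 and 8987 in the wild type (log2 fold change -2.10 ± 0.31, paired SE, adjusted p = 0.00589, unpaired 0.104). PGI1, phosphoglucose isomerase, had 1833, 7385 and 3174 in rap1 ts, against 10692, 21648 and 12608 in the wild type, and fell with a log2 fold change of -2.02. PFK1 and PFK2, the subunits of phosphofructokinase, fell with log2 fold changes of -1.88 and -1.20. The groups did not overlap for HXK2, PGI1 and PFK1. Among the 10 tested members with textbook Rap1 sites, ENO1 and PGK1 fell, with log2 fold changes of -2.12 and -1.26, with overlapping groups in both. ENO1 had 1281, 16710.4 and 2988 in rap1 ts, against 9990.3, 31606 and 16908 in the wild type, and its enolase copy ENO2 had a fold change of -0.68 (paired adjusted p = 0.0653). The other 7 uncalled genes had fold changes of -0.40 (FBA1), -0.36 (ADH1), -0.33 (CDC19), -0.33 (GPM1), -0.18 (TDH3), -0.18 (TPI1) and -0.07 (PDC1). CDC19, pyruvate kinase, had 15124, 27251 and 19874 in rap1 ts, against 21821, 38735 and 19104 in the wild type. The mutant and wild-type levels of these 7 overlapped, and all 7 were among the brightest signals on the arrays. Of 14 hexose transport and glucose sensing genes, the transporter gene HXT2 fell with a log2 fold change of -2.20 and the glucose sensor gene SNF3 rose by 1.66.

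**Figure D3:**
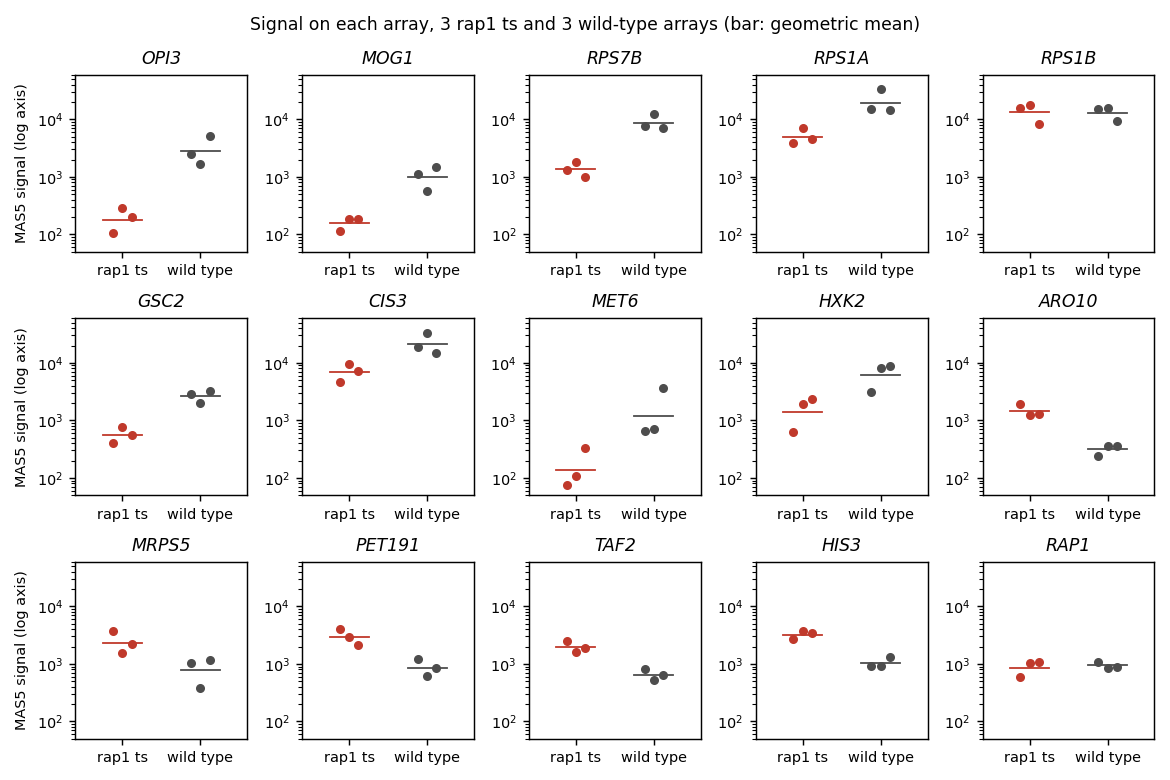
MAS5 signal on a log axis for 15 named genes, with rap1 ts (red) left of the wild type (grey), 1 point per array and a bar at the geometric mean. OPI3, MOG1, RPS7B, RPS1A, GSC2, CIS3, MET6 and HXK2 lie wholly lower in rap1 ts, ARO10, MRPS5, PET191, TAF2 and HIS3 wholly higher, and RPS1B and RAP1 overlap.

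Among the groups with more than 25 tested members, cell wall genes had the highest share of falls. Of 56 tested, 33 fell (58.9%) and 1 rose, against 10% and 15% of all features, and the median was -0.91. The medians within pairs 1, 2 and 3 were -1.09, -0.52 and -0.77, and 22, 30 and 20 genes fell without pairs 1, 2 and 3. Without array 1 of rap1 ts the median was -0.58. The 3 signals of rap1 ts lay wholly below those of the wild type for 21 of the 56 and wholly above for 1. For all features these shares were 10.5% and 16.1%. Both catalytic subunits of 1,3-beta-glucan synthase fell. GSC2 had 412, 768 and 562 in rap1 ts, against 2905, 2019 and 3214 in the wild type (log2 fold change -2.22 ± 0.32, SE, adjusted p = 0.0112 unpaired). Its other 6 probe sets were dim (mean log2 levels of 4.17 to 6.80, against 10.89 for the one used) and gave -1.34 to 0.20. FKS1 had 4664, 9353 and 5759 in rap1 ts, against 12279, 17186 and 11946 in the wild type, and fell with a log2 fold change of -1.11 (paired adjusted p = 0.00589, unpaired 0.0903). The wall proteins CIS3 and SVS1 fell in both fits. CIS3 had 4631, 9665 and 7311 in rap1 ts, against 18938, 32896 and 14929 in the wild type (log2 fold change -1.61 ± 0.30, adjusted p = 0.0345). SVS1 had 2144, 2962 and 3482 in rap1 ts, against 7517, 6557 and 7519 in the wild type (log2 fold change -1.35 ± 0.26, adjusted p = 0.0418). TOS1, TOS6 and SIM1 fell further, with log2 fold changes of -2.48, -2.41 and -2.36, but in the paired fit alone (paired adjusted p = 0.00589, 0.00942 and 0.00346). SIM1 had 604, 2241 and 1358 in rap1 ts, against 4790.0, 8303 and 6496 in the wild type, with no overlap. NCA3, a relative of SIM1, was the single member that rose, by 1.35, with overlapping groups.

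**Figure D4:**
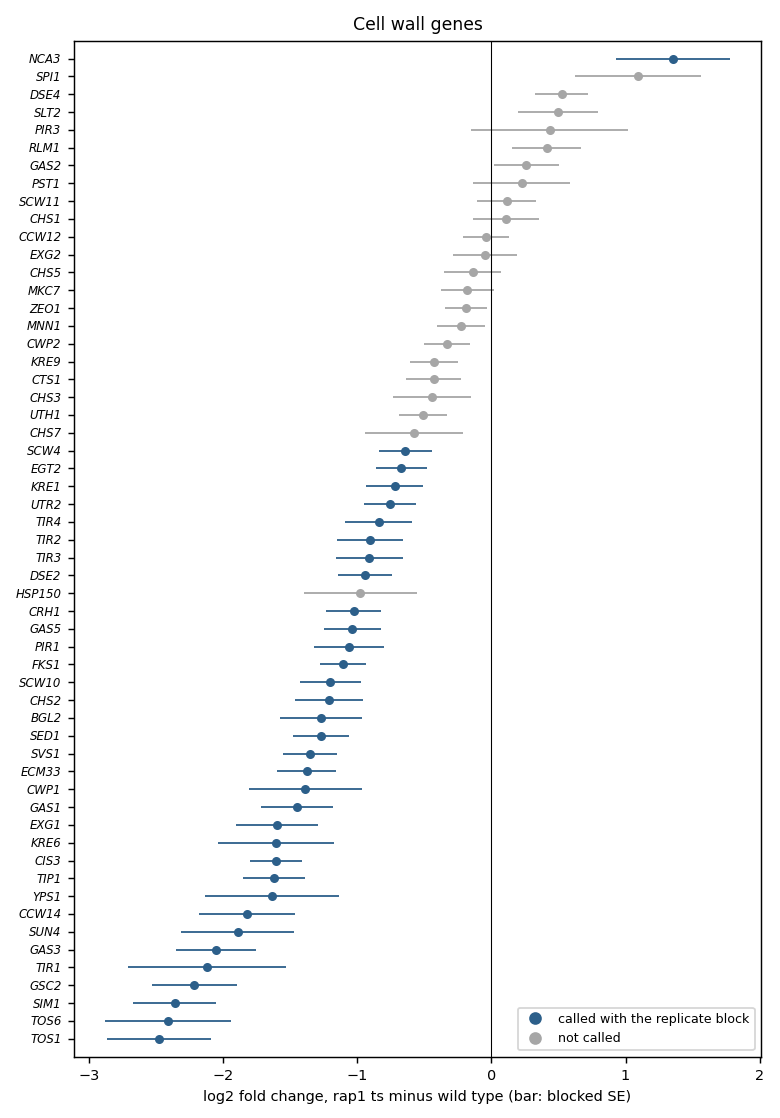
Log2 fold change (rap1 ts minus wild type) of 56 cell wall genes with the standard error of the paired fit, blue where called in that fit. Points run from -2.48 (TOS1) to 1.35 (NCA3), and 33 called members lie below 0 and 1 above.

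Genes for making and moving secreted and membrane proteins also fell in part, beside 10% of all features. Without pairs 1, 2 and 3, 205, 530 and 286 of all 4687 features fell. Of 30 genes of N-glycosylation, oligosaccharide transfer and O-mannosylation 9 fell (30%) and none rose. ALG3, a mannosyltransferase that extends the lipid-linked oligosaccharide, had 1073, 1425 and 1028 in rap1 ts, against 3394, 4187 and 2325 in the wild type (log2 fold change -1.46 ± 0.28, adjusted p = 0.039 unpaired). Its other probe sets gave -1.19 and -2.46. DPM1, which makes dolichol phosphate mannose, fell with a log2 fold change of -1.47. The group's falls numbered 1, 13 and 5 without pairs 1, 2 and 3, and its median of -0.56 was -0.25 without array 1 of rap1 ts. Of 46 genes of ER translocation and the early secretory pathway 8 fell (17.4%), and 2, 10 and 4 without pairs 1, 2 and 3, with a median of -0.33 that was -0.08 without array 1 of rap1 ts and -0.13 without wild-type array 3. KSH1, a small protein of the early secretory pathway, had 797, 1270.3 and 1071 in rap1 ts, against 2731, 2766 and 3562 in the wild type (log2 fold change -1.53 ± 0.26, adjusted p = 0.0171 unpaired). SEC61, the translocation channel, and SEC23, a COPII coat subunit, fell with log2 fold changes of -1.49 and -1.63 in the paired fit. Of 26 ergosterol synthesis genes 8 fell (30.8%, and 2, 7 and 6 without pairs 1, 2 and 3), among them ERG13 and ERG25 with log2 fold changes of -1.84 and -1.61. Of 17 genes for the vacuolar proton ATPase and its assembly 5 fell (29.4%, and 2, 5 and 3 without pairs 1, 2 and 3), with VMA2 at -1.33 and VMA16 at -1.12.

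Synthesis and uptake of amino acids fell in several branches. For sulfate assimilation and methionine 13 of 25 genes fell (52%), with a median of -0.98 and medians of -0.91, -0.56 and -1.08 within the pairs. Without pairs 1, 2 and 3, 11, 13 and 8 fell. MET6, methionine synthase, had 73.9, 109 and 335 in rap1 ts, against 659, 722 and 3703 in the wild type. Its arrays varied widely within each group, but the differences within pairs (-2.95, -2.60 and -3.42) were close, so it was called in the paired fit (adjusted p = 0.000927) and not in the unpaired one (0.136). STR3, SAM2 and MET5 fell with log2 fold changes of -2.39, -1.99 and -1.69. For leucine, isoleucine and valine 7 of 10 genes fell (70%), led by ILV2 at -1.48 and LEU4 at -1.16, and 3, 6 and 6 fell without pairs 1, 2 and 3. Of 11 arginine and proline genes 4 fell (36.4%), 2 of them in both fits, and 2 fell without pair 1. ARG1, argininosuccinate synthetase, had 584, 767 and 1522 in rap1 ts, against 4411, 5932 and 3128 in the wild type (log2 fold change -2.28 ± 0.39, adjusted p = 0.0206 unpaired). PRO1, the first enzyme of proline synthesis, had 1910.2, 1203 and 1199 in rap1 ts, against 4512, 3406 and 4085 in the wild type (log2 fold change -1.49 ± 0.24, adjusted p = 0.0154). Of 6 histidine genes other than HIS3, HIS4 and HIS1 fell, with log2 fold changes of -1.91 and -0.66, and 1 fell without pair 1 or pair 2. None of 8 lysine genes was called. GCN4, the activator of many of these genes, had 13263, 14492 and 12834 in rap1 ts, against 18269, 25674 and 13857 in the wild type, and was not called (log2 fold change -0.47, paired adjusted p = 0.0692).

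Plasma membrane amino acid permeases fell in 6 of 12 cases (50%), and all 12 lay below 0. Without pairs 1, 2 and 3, 4, 6 and 2 fell. DIP5, which takes up glutamate and aspartate, had 27.9, 247 and 399 in rap1 ts, against 246, 3414 and 679 in the wild type, with overlapping groups. LYP1, the lysine permease, had 820.1, 1708 and 1289.7 in rap1 ts, against 2185, 3888 and 2829 in the wild type, with no overlap, and fell (log2 fold change -1.24, paired adjusted p = 0.00665). The arginine permease gene CAN1 and GNP1 fell with log2 fold changes of -1.61 and -1.19. AVT4, an exporter of amino acids from the vacuole, fell in both fits, with 398, 587 and 688 in rap1 ts, against 1626, 2443 and 2105 in the wild type (log2 fold change -1.88 ± 0.28, adjusted p = 0.0136). Genes of amino acid breakdown included 3 of 12 that rose (6, 2 and 2 without pairs 1, 2 and 3). ARO10, a decarboxylase of aromatic amino acid breakdown, had 1931, 1261 and 1272 in rap1 ts, against 244, 352 and 363 in the wild type, the largest rise among genes whose groups did not overlap (log2 fold change 2.17 ± 0.27, paired SE, adjusted p = 0.00321, unpaired 0.0593). ARO9, the transaminase before it, rose by 1.25. For purine synthesis 4 of 12 genes fell (33.3%, and 2 without pair 1).

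Cell cycle and cytoskeleton genes were counted next. In RNA of a whole culture, fewer cells of a stage and less RNA per cell cannot be told apart. YHP1, a homeobox repressor active around the G1 stage, had 146, 174 and 230.1 in rap1 ts, against 1025, 1265 and 597 in the wild type (log2 fold change -2.27 ± 0.37, adjusted p = 0.0154 unpaired). PPN1, a polyphosphatase gene that shares the upstream region of YHP1 on the other strand, rose by 0.66. Against the background of 10% lower and 15% higher, of 19 cyclins and cell cycle regulators 6 fell and 2 rose (3, 4 and 6 fell and 0, 2 and 0 rose without pairs 1, 2 and 3), with SWI5 at -1.73, CLB1 at -1.16 and CLN3 at -1.14 among the falls, and MBP1 at 0.92 and SIC1 at 0.82 as the rises. Of 5 tested histone genes 3 fell (2, 2 and 3 without pairs 1, 2 and 3). The linker histone gene HHO1 had 93.1, 340.0 and 460.1 in rap1 ts, against 928, 1005 and 1619 in the wild type (log2 fold change -2.15, paired adjusted p = 0.00605), and HTB2 and HTZ1 fell with log2 fold changes of -2.06 and -0.79. Of 35 tubulin and actin cytoskeleton genes 5 fell (14.3%, near the 10% of all features) and none rose. SCP1, an actin-bundling protein, had 351, 162 and 159 in rap1 ts, against 925, 706 and 987 in the wild type (log2 fold change -1.98 ± 0.33, adjusted p = 0.016 unpaired). The tubulin genes TUB1 and TUB2 fell with log2 fold changes of -1.41 and -1.36 in the paired fit. YMR027W, for which no role is given here, had 505, 665 and 473 in rap1 ts, against 1834, 1513 and 2202 in the wild type (log2 fold change -1.73 ± 0.24, adjusted p = 0.00838 unpaired).

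Among genes that rose, mitochondrial ribosomal proteins were the group with the highest share called. Of 72 tested, 42 rose (58.3%) and none fell, against 15% and 10% of all features, and 68 lay above 0. The median was 0.78, but pair 2 gave 1.44 and pairs 1 and 3 gave 0.44 and 0.43. Leaving out wild-type array 2 brought the median to 0.46. Without pairs 1, 2 and 3, 32, 16 and 24 members rose, and 1 fell without pair 2. MRPS5, of the small mitochondrial subunit, had 3719, 1526 and 2239.9 in rap1 ts, against 1031, 384 and 1180.5 in the wild type, with no overlap (log2 fold change 1.57 ± 0.26, paired SE, adjusted p = 0.00659, unpaired 0.114). MRPL27, MRP13 and MRPL28 rose by 1.37, 1.30 and 1.28. In these 4 genes wild-type array 2 had the lowest signal of the 6 arrays. Assembly factors of the respiratory complexes rose in 14 of 30 cases (46.7%), with a median of 0.68, and in 14, 7 and 9 without pairs 1, 2 and 3. PET191, which serves the assembly of cytochrome c oxidase, had 4027, 2978 and 2101 in rap1 ts, against 1201, 615 and 844 in the wild type, with no overlap (log2 fold change 1.76, paired adjusted p = 0.00589). COX17, a copper chaperone, had 5219, 5206 and 5668 in rap1 ts, against 2113, 602 and 3384 in the wild type, and rose by 1.71. Subunits of the respiratory chain and ATP synthase rose in 8 of 35 cases (22.9%, and 3 without pair 2), among them the cytochrome c genes CYC7 and CYC1 at 1.83 and 1.35. CYC1 had 2629.7, 6994 and 7172 in rap1 ts, against 1309.9, 898 and 6689 in the wild type, and its difference lay mainly in pair 2 (1.00, 2.94 and 0.10).

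**Figure D5:**
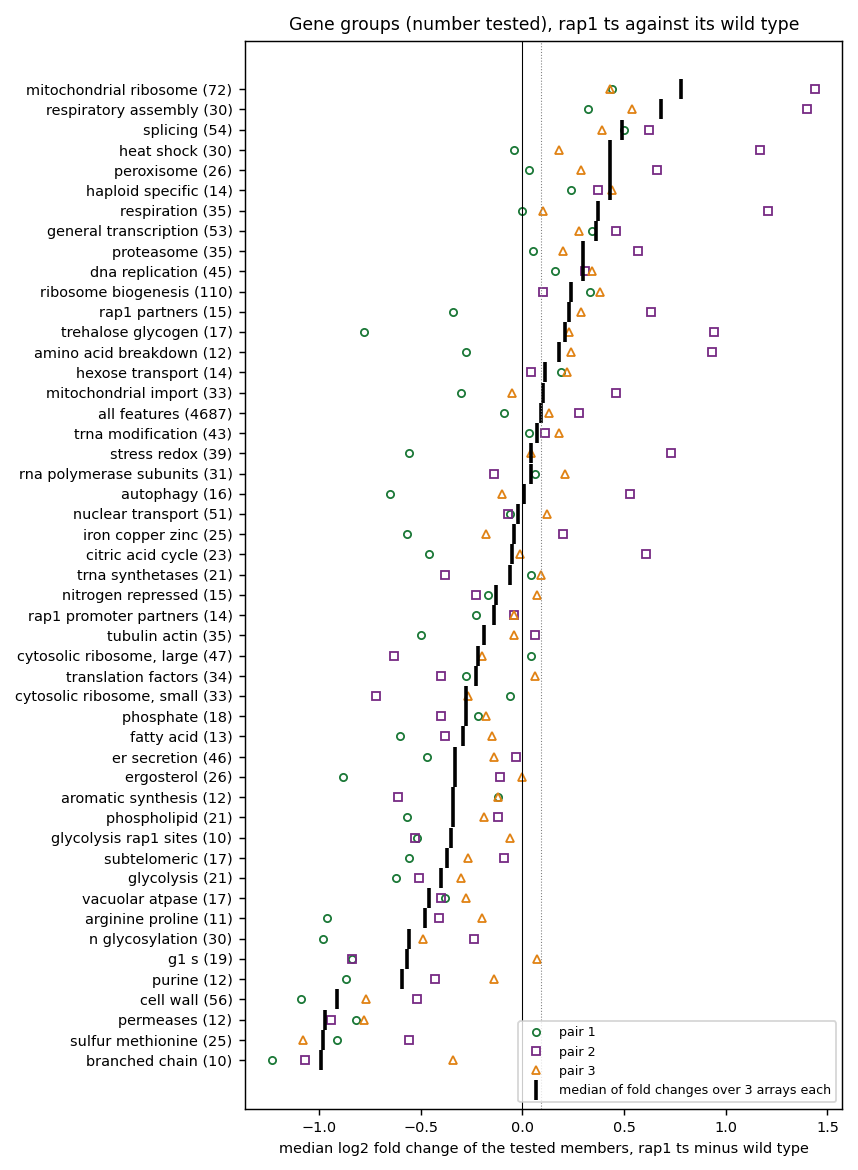
Median log2 fold change (rap1 ts minus wild type) of the tested members of each gene group with at least 10 of them (number in brackets), as the overall fold change (bar) and within each array pair (symbols), with a dotted line at the median of all features. Mitochondrial ribosomal proteins lie at the top (0.78) with pair 2 far to the right, and cell wall, permease, sulfur and branched-chain genes at the bottom, all 3 pairs below 0.

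Genes of transcription and splicing also rose in part, beside 15% of all features that rose and 10% that fell. Without pairs 1, 2 and 3, 495, 427 and 342 of all 4687 features rose. Of 54 spliceosome genes 18 rose (33.3%) and none fell, with medians of 0.50, 0.62 and 0.39 within the pairs, and 12, 12 and 7 rose without pairs 1, 2 and 3. SYF2, a splicing factor of the Prp19 complex, had 1452, 783 and 1325 in rap1 ts, against 582, 309.8 and 616 in the wild type (log2 fold change 1.23, paired adjusted p = 0.00783), and CLF1, CEF1 and YHC1 rose by 1.13, 1.11 and 1.08. Of 53 genes of the general transcription machinery 13 rose (24.5%) and 5 fell, and 7, 13 and 6 rose and 2, 3 and 1 fell without pairs 1, 2 and 3. The rises included TAF2, TAF1, TAF8 and TAF7, all for subunits of TFIID. TAF2 had 2488, 1609 and 1864 in rap1 ts, against 821, 520.1 and 653 in the wild type, with like differences in the pairs (1.59, 1.61 and 1.50) and a log2 fold change of 1.56 ± 0.19 (paired SE, adjusted p = 0.00321, unpaired 0.0903). TAF1, which is also linked to Rap1 at ribosomal protein promoters, rose by 1.16, and TAF8 and TAF7 by 0.91 and 0.91. SSL1, a subunit of TFIIH, fell in both fits and had closely grouped values, with 1052, 1078 and 1018 in rap1 ts, against 2393, 2572 and 2461 in the wild type (log2 fold change -1.23 ± 0.21, adjusted p = 0.0193 unpaired). SUA7 (TFIIB), the Mediator gene SRB2 and SPT15 (the TATA-binding protein, also in TFIID) fell with log2 fold changes of -1.06, -0.93 and -0.82 with overlapping groups. Of 45 replication genes 9 rose (20%, near the 15% of all features, and 6, 5 and 3 without pairs 1, 2 and 3) and 2 fell. ORC6, of the origin recognition complex, rose by 1.45, and the ribonucleotide reductase genes RNR4 and RNR2 fell with log2 fold changes of -1.46 and -0.81.

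Heat shock genes are a reference for the temperature shift that both groups shared. Of 30 tested, 4 rose (13.3%, near the 15% of all features, and 9, 3 and 4 without pairs 1, 2 and 3) and none fell. Yet 26 of the 30 lay above 0, and their median was 0.43, against 0.09 over all features. The medians within pairs 1, 2 and 3 were -0.04, 1.17 and 0.18, so most of this shift lay in pair 2. HSP30, a plasma membrane heat shock protein, had 13386, 21205 and 1753 in rap1 ts, against 5379, 2477 and 597 in the wild type, with wide spread in both groups and differences of 1.31, 3.09 and 1.53 within pairs. SSA4, an inducible Hsp70, and HSP82, an Hsp90, rose by 1.64 and 0.98 with overlapping groups, and pair 2 gave the largest difference in both. Of 35 proteasome genes 2 rose (5.71%) and none fell, but 28 lay above 0 and the median was 0.30. For 8 of the 35 the signals of rap1 ts lay wholly above those of the wild type, beside 16.1% of all features. Of 39 stress and redox genes 3 rose (7.69%) and 4 fell (10.3%), against 15% and 10% of all features. Without pairs 1, 2 and 3, 7, 1 and 1 rose and 0, 5 and 1 fell.

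RAP1 itself, whose probe set does not report on a ts protein, had 585, 1017 and 1089 in rap1 ts, against 1089.7, 858 and 886 in the wild type. Its log2 fold change was -0.12 ± 0.30 (adjusted p = 0.842 unpaired and 0.785 paired). Of 15 tested genes of the group that holds RAP1 and its telomere and silencing partners, 4 rose (26.7%) and none fell, and 3, 1 and 0 rose without pairs 1, 2 and 3. DOT1, the histone H3 methyltransferase that limits silencing, had 2911, 1849 and 3455 in rap1 ts, against 1811, 402 and 1131 in the wild type (log2 fold change 1.48, paired adjusted p = 0.0112). ESC1, EST3 of telomerase and ORC1 rose by 0.84, 0.76 and 0.76. RIF1 (0.23), SIR2 (0.40) and SIR3 (-0.31) were not called, and RIF2, SIR1 and SIR4 lay under the filter on low signal. Of 14 promoter partners 1 rose (TAF1) and 1 fell, SCH9, a kinase of nutrient signalling, with a log2 fold change of -0.94. IFH1 (-0.11), SFP1 (-0.57), HMO1 (-0.39), GCR1 (-0.61, paired adjusted p = 0.0571) and GCR2 (0.50) were not called, and FHL1 was under the filter. TBF1, another telomere-binding general regulatory factor, fell with a log2 fold change of -0.97, with 243, 319 and 554 in rap1 ts, against 596, 602 and 966 in the wild type. Its call was lost without pair 1, 2 or 3, and that of SCH9 without pair 1 or 3. ABF1 (-0.46), MCM1 (0.46) and RSC3 (-0.03) were not called.

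Mating-type genes allow a check on silencing and on the strains. The a-specific genes MFA1 and MFA2, for a-factor, were bright in all 6 arrays. MFA1 had 14303, 16021 and 24628 in rap1 ts, against 9127, 9152 and 9969 in the wild type (log2 fold change 0.92, paired adjusted p = 0.0482). The MFA1 probe set is of a type that can share sequence with other genes. Of 6 tested a-specific genes 3 rose (1, 2 and 1 without pairs 1, 2 and 3) and none fell. Their log2 fold changes ran from -0.11 to 1.02, so the rise was not common to all. The alpha-specific genes were dim, with MF(ALPHA)1 at 102, 107 and 82.6 in rap1 ts, against 106, 195 and 90.3 in the wild type, and MF(ALPHA)1, MF(ALPHA)2 and STE3 lay under the filter on low signal. SAG1, for alpha-agglutinin, passed it with 108, 338 and 258 in rap1 ts, against 267, 427 and 333 in the wild type, and was not called (log2 fold change -0.63). The probe set for the a1 gene of HMR, which shares sequence with the MAT locus, had 6289, 4679 and 3616 in rap1 ts, against 2922, 2550.2 and 2207 in the wild type (log2 fold change 0.89, paired adjusted p = 0.011). The MAT and HMR copies cannot be told apart by it. Of 14 genes on a list named haploid-specific 5 rose (35.7%, and 2, 3 and 0 without pairs 1, 2 and 3) and none fell. STE18, HO, STE20 and STE5 rose by 0.83, 0.80, 0.77 and 0.74. Of the 14, 5 lay below 0, the lowest at -0.58. Whether each listed gene is limited to haploid cells was not tested.

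Position along the chromosome showed little among the genes tested. The 5 outermost genes of each chromosome end had 32 tested members with a median of 0.11, and 2 fell (6.25%) and 4 rose (12.5%). Genes 6 to 10 from the end had 76 tested members, with 8 lower (10.5%) and 6 higher (7.89%). All features had 10% lower and 15% higher, and 3638 genes more than 40 from an end had a median of 0.09. Most genes at the very ends were not tested, since their signals were low or shared. For the outermost 5, 32 of 160 were tested. A change of silencing at the genes left out could thus not be seen in these counts. Among 17 tested subtelomeric family genes 3 fell and 2 rose, with COS6 at -1.06 and COS8 at 0.64. Across 933 neighbouring gene pairs transcribed away from each other, the fold changes correlated at 0.10 (Pearson, across gene pairs that share the arrays), against -0.02 for 982 pairs transcribed toward each other. Both genes were called in 57 of the 933, in the same direction in 38 (10 both lower, 28 both higher) and in opposite directions in 19. Of the 982 pairs transcribed toward each other both were called in 71, in the same direction in 33 and in opposite directions in 38. Of 1580 neighbours on 1 strand (correlation 0.03) both were called in 105, in the same direction in 58 and in opposite directions in 47. With 25% of all features called in the paired fit, some pairs would have both genes called without any link between neighbours. The counts were not tested against that number. No difference between these arrangements was tested, and YHP1 and PPN1 were among the 19 divergent pairs called in opposite directions.

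Several other groups stayed near the background or were small. Of 51 nuclear transport genes 6 fell and 2 rose, of 43 tRNA processing genes 4 fell and 8 rose, and of 33 mitochondrial import genes 3 fell and 6 rose. Of 26 peroxisome genes 5 rose, led by PEX19 at 1.22, a receptor for peroxisomal membrane proteins. Of 25 iron, copper and zinc uptake genes 3 fell and 2 rose, and the copper transporter gene CTR1 had the largest fold change upward of the paired calls (2.23), most of it in pair 2 (1.34, 4.42 and 0.93).

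Gene length and level went with the calls in part. Among the brightest 20% of genes 16.5% fell and 10.3% rose, against 7.72% and 12% in the dimmest 20% of those tested. By coding length, 19.2% rose and 7.13% fell in the shortest 20%, against 11.8% and 7.47% in the longest 20%. Level and length were not held fixed in the counts by gene group, and their part was not tested.

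Among genes commonly used as strain markers, HIS3 rose in both fits, with 2666, 3675 and 3466 in rap1 ts, against 908, 912 and 1317 in the wild type (log2 fold change 1.64 ± 0.26, adjusted p = 0.0147). A second HIS3 probe set gave 2.21. MRM1, its divergent neighbour, had a fold change of 0.01. ADE2, LEU2 and CAN1 fell in the paired fit, with log2 fold changes of -1.11, -0.94 and -1.61, and URA3 (-0.39), TRP1 (0.04) and LYS2 (0.13) were not called. The labels give no marker genotype, so a marker carried by 1 strain and an effect of the mutation cannot be told apart for these genes. UBX3, a UBX-domain protein that binds Cdc48, was the other gene that rose in both fits, with 1306, 1566 and 1641 in rap1 ts, against 582, 487 and 679 in the wild type (log2 fold change 1.35 ± 0.24, adjusted p = 0.0259).

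Whether a difference was that of rap1 rather than shared with abf1 was tested as the rap1 effect minus the abf1 effect. Ts factors at 37 C in general were not tested. The 2 comparisons have separate wild types and share no array. The unpaired limma fit called 0 features at an adjusted p under 0.05, and 596 had an unadjusted p under 0.05. The paired fit called 135 features with a lower rap1 effect (2.88%) and 291 with a higher one (6.21%), together 9.09% of those tested. Of these, 131 and 244 had also been called in the same direction for rap1. Of the 19 genes called in both rap1 fits, 18 also differed from the abf1 effect in the paired fit, all except HIS3 (difference 1.05, adjusted p = 0.055). The difference reuses the 6 rap1 arrays on which these genes were called, so neither overlap is a separate test. OPI3 differed most of the 19, by -4.43 (paired adjusted p = 0.0116), followed by ARG1 at -2.81. By group, the difference was lower for 15 of 56 cell wall genes, 11 of 25 sulfur and methionine genes and 8 of 80 cytosolic ribosomal protein genes. It was higher for 23 of 72 mitochondrial ribosomal protein genes, 22 of 110 ribosome assembly genes and 9 of 54 spliceosome genes. The median abf1 effects of these 6 groups were 0.02, 0.20, -0.08, -0.28, -0.23 and -0.09.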

How the data were processed

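Total RNA was hybridised to 12 1-colour Affymetrix yeast arrays with biotin label, per the labels. The deposited probe set intensity values are linear MAS5 signals, made by the authors per the submitters' processing notes, which give no settings here. Each array's mean signal without the lowest and highest 2% of probe sets lay at 1500.7 to 1501.3, so the authors had scaled them. Of 9335 probe sets, 60 were controls, 6504 named 1 gene, 328 several and 2443 none. The arrays' number limits the precision.

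For every gene, or set of genes named together, the brightest probe set by mean was kept. Features in the lowest 20% by mean log2(signal + 13) were left out, where 13 is the 10th percentile of all values, which left 4687, of which 4543 name 1 gene. limma 3.58.1 (R 4.3.3) fitted 4 group means over 12 arrays with a variance trend and Benjamini-Hochberg adjustment over all features. The paired fit added a replicate block, numbered within rap1 and within abf1. Equal numbers pair the arrays by a rule that asked for a correlation over 0.1 of deviations from the group means in every pair (0.25 to 0.583 for rap1, 0.574 to 0.824 for abf1), from the data and not from the labels. The fits were tested on simulated data.

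The members and gene lists were chosen with earlier results of these data known, so lists are described by counts and medians and not tested. Genes named were members of the short lists of Rap1 partners and markers, the genes called in the unpaired fit, the 15 largest paired falls and rises without overlap, up to 4 members a direction of each list, and divergent neighbours. Copies of duplicated genes, FKS1, PFK2, ADH5, the glycolytic genes with Rap1 sites, mating-type genes and NPA3 were named after their values were seen. Gene order and coding length came from RefSeq's R64 gene table, which matched 4482 of 4543 genes. No coordinates are given, since no build is named for the arrays, and the planned count of Rap1 motifs in promoters was not run, since no sequence was used here.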

Additional observations from a re-analysis of the deposited data

Results flagged for a closer look

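The rap1 effect differed from the abf1 effect for 426 features in the paired limma fit, by the test of the difference itself at an adjusted p under 0.05, against 0 in the unpaired fit. Of the genes called for rap1 in both fits, 18 were among them. Those genes had been called on the same rap1 arrays, so their number is not a separate test. The differences (rap1 effect minus abf1 effect, log2 scale) were -4.43 for OPI3, -2.81 for ARG1, -2.47 for RPS7B, -2.37 for GSC2, -2.17 for SCP1, -2.09 for YHP1 and -2.05 for RPL7A. They were -1.85 for KSH1, -1.79 for YMR027W, -1.75 for AVT4, -1.65 for RPS1A, -1.50 for CIS3, -1.30 for ALG3, -1.28 for RPL14B, -1.24 for PRO1, -1.21 for SSL1 and -1.18 for SVS1. UBX3 differed by 1.50.

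Probe sets without a gene name here, which no comparison used, were also fitted. Of 540 that passed the filter on low signal, 83 were higher and 19 lower in rap1 ts than in the wild type in the paired fit, and 0 higher and 2 lower in the unpaired fit. Their median log2 fold change was 0.22. Of 4955 named probe sets in the same paired fit, 671 were higher and 498 lower, with a median of 0.07. The share of unnamed probe sets that were higher was thus near the 15% of all features.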

How the results depend on the processing

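Without a block, 17 genes were lower and 2 higher in rap1 ts. With the replicate block these were 470 and 701, with block and quantile scaling 614 and 597, with block and median centring 594 and 558, and with block on the 6 rap1 arrays alone 224 and 256. With the block and pair 1, 2 or 3 left out they were 205, 530 and 286 lower and 495, 427 and 342 higher. Of the 1171 genes called with the block, between 478 and 1005 were called in the same direction under these 6 alternatives. Without the block, quantile scaling and median centring each called 28 lower, the 6 rap1 arrays alone 3 lower and 0 higher, and a filter at the 50th percentile 1 higher. Leaving out 1 array at a time called 6 to 22 lower and 0 to 2 higher. A larger offset, no filter, means over probe sets and a fit without the variance trend kept both counts within 1.5 times. The rap1 effect minus the abf1 effect was called for 0 features without the block, 4 with quantile scaling (GSC2, KSH1, OPI3 and YMR027W) and 426 with the replicate block.

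No named gene called in either fit changed sign in any alternative run for it. Among the 159 genes named, 15 uncalled ones changed sign, with ranges over 1 array left out of -1.14 to 0.16 for ABF1, -0.59 to 0.35 for IFH1, -0.039 to 0.33 for LYS2, -0.21 to 0.17 for MRM1, -0.15 to 0.043 for PDC1, -0.28 to 0.16 for RAP1 and -0.055 to 0.48 for RIF1. The ranges were -0.22 to 0.24 for RPL9A, -0.33 to 0.13 for RPP2B, -0.38 to 0.14 for RPS0A, -0.22 to 0.38 for RPS1B, -0.39 to 0.16 for RSC3, -0.38 to 0.13 for TDH3, -0.34 to 0.10 for TPI1 and -0.12 to 0.20 for TRP1. Quantile scaling gave -0.14 for MRM1, 0.056 for PDC1, -0.011 for RPL9A, 0.049 for RPS0A and -0.095 for TRP1, and median centring gave -0.08 for MRM1, -0.044 for RPL9A, -0.056 for RPS1B and -0.047 for TRP1. Among 56 gene lists, the median of 17 (from -0.24 to 0.23 with all arrays) had the opposite sign in 43 values under 1 array left out or another scaling. With 1 array left out, hexose transport ran from -0.01 to 0.32, histidine synthesis from -0.30 to 0.03, amino acid breakdown from -0.19 to 0.65, trehalose and glycogen from -0.13 to 0.54, other general factors from -0.77 to 0.16 and Rap1's telomere and silencing partners from -0.03 to 0.49. The cause of these changes was not tested. The Rap1 motif count in promoters was not run. With 3 arrays a group and dim genes left out, a gene without a call may still differ.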
